A study of Mus with 12 samples.

Results

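Inflammasomes are protein platforms that assemble in the cytosol of myeloid and other cells when a sensor detects a microbial product, a crystal or cell damage. The sensor recruits the adaptor ASC, ASC recruits pro-caspase-1, and the active caspase matures interleukin-1β and interleukin-18 and cuts gasdermin D, whose amino-terminal part makes pores in the plasma membrane and ends the cell by pyroptosis. In the non-canonical arm, mouse caspase-11, encoded by Casp4, senses cytosolic lipopolysaccharide and cuts gasdermin D directly. Many steps of this pathway are controlled after transcription, so the transcript levels given here measure the supply of components and not the activity of an inflammasome.

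The genes described are 8 of the 25247 in the blood table, chosen by symbol: the sensors Nlrp3, Nlrp12, Mefv and Aim2, the adaptor Pycard (ASC), the caspases Casp1 and Casp4, and the pore protein Gsdmd. All 8 were present in the table, each under a single identifier. They were measured by RNA sequencing of whole blood from 12 BALB/c mice, 3 in each of 4 groups, which were bought as 6-week-old females by the study's methods. Solvent mice received the acetone and olive oil vehicle alone on shaved dorsal skin. DNCB mice were sensitised with 1% 2,4-dinitrochlorobenzene, a hapten used to produce dermatitis-like skin lesions, and challenged repeatedly with 0.5% of it. The scMSC mice were given the same sensitisation and challenge plus doses of 2e6 mesenchymal stem cells (MSCs), from human umbilical cord by the study's methods, in 100 μL under the dorsal skin. In scivMSC mice the same volume was split into 50 μL under the skin and 50 μL into the tail vein. Blood was taken on day 30. No group labelled as given DNCB and an injection of cell-free medium is among the samples, so the cells and the injection cannot be told apart, and all MSC mice also carried DNCB. No genetic change is labelled in any group.

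The estimated counts summed to between 52.2e6 and 65.1e6 per library, and haemoglobin transcripts took 91.3% to 95.6% of the summed FPKM (fragments per kilobase of transcript, scaled to the library total). Erythroid, platelet and leukocyte markers were detected in every group. The 8 genes were therefore read from the small non-haemoglobin part of each library, and none exceeded 7.96 FPKM. The lowest estimated counts were 8 for Mefv and 8 for Aim2 in scivMSC replicate 2 and 12 for Casp1 in scivMSC replicate 3, where 12 counts per library was taken as the floor. No group had all 3 libraries at or under that floor. The labels name no sequencing batch. In whole blood, fewer cells of a type and less RNA per cell cannot be told apart.

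Fold changes were fitted with edgeR's quasi-likelihood test, and each library was scaled to its summed counts, as FPKM values are. A call required a p under 0.05 after Benjamini-Hochberg adjustment over all genes tested, together with a difference of more than 1 log2 unit, a fold change over 2. The median of all 5527 genes tested moved from 0.06 in DNCB against Solvent to -0.63 for scMSC and -1.53 for scivMSC, both against DNCB, and to -0.59 in scMSC and -1.47 in scivMSC against Solvent. In scivMSC against scMSC it was -0.87. Values on a second scale, the trimmed mean of M values (TMM), which places the median gene near 0, are given where they alter a call. Adjusted p-values are edgeR's unless another tool is named, and log2 fold changes are followed by their standard error (SE) and were computed from 3 mice against 3.

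The genes lie on 6 chromosomes. Casp1 (chr9:5298508-5307290, plus strand) and Casp4 (chr9:5308828-5336783, plus strand) are neighbours with 1537 bp between them. Nlrp12 (chr7:3218784-3249740, minus strand) and Pycard (chr7:127989708-127993867, minus strand) share a chromosome, far apart. Nlrp3 is at chr11:59541568-59566956 (plus strand), Gsdmd at chr15:75862327-75867408 (plus strand), Mefv at chr16:3707218-3718097 (minus strand) and Aim2 at chr1:173350879-173466040 (plus strand). The coordinates are those of the deposited table. The submitters' processing notes name build mm8, but 99.94% of 21414 genes in the table overlap their positions in the GRCm38.p6 annotation, so the coordinates were read as GRCm38. Aim2 overlaps Cadm3 on the other strand and Pycard overlaps Gm45205 on the other strand. Whether reads were counted by strand was not given in the sources used here, but Cadm3 reached at most 43 estimated counts and Gm45205 at most 12 in any library.

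In DNCB blood, transcripts of 3 sensors and of caspase-11 were higher than in Solvent blood: Nlrp12 7.16-fold, Mefv 6.47-fold, Casp4 5.49-fold and Nlrp3 4.22-fold, where 15.6% of the 5527 genes tested were called higher. The transcripts of the adaptor Pycard and the DNA sensor Aim2 stood at nearly the same mean level in both groups, and those of Casp1 and Gsdmd lay between, without a call. In both MSC groups all 6 of Nlrp3, Nlrp12, Mefv, Casp1, Casp4 and Gsdmd were called lower than in DNCB, but so were 24.9% of all genes tested in scMSC and 62% in scivMSC, and with TMM the call of Gsdmd in scMSC was lost. All of these but Gsdmd passed the filter on low values through the DNCB libraries, so the counts are descriptions. In scivMSC, Pycard and Aim2 were called lower too, in a fit without a filter on low values where 22.9% of genes were. Among the 10044 genes with a mean of at least 40 estimated counts both were called as well, but so were 58.7%. The fold differences of scivMSC from DNCB ranged from 4.47 for Aim2 to 33.8 for Mefv with total counts, and from 1.58 to 12.0 for the same genes with TMM. The call of Aim2 was lost with TMM and without DNCB replicate 2.

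**Figure D1:**
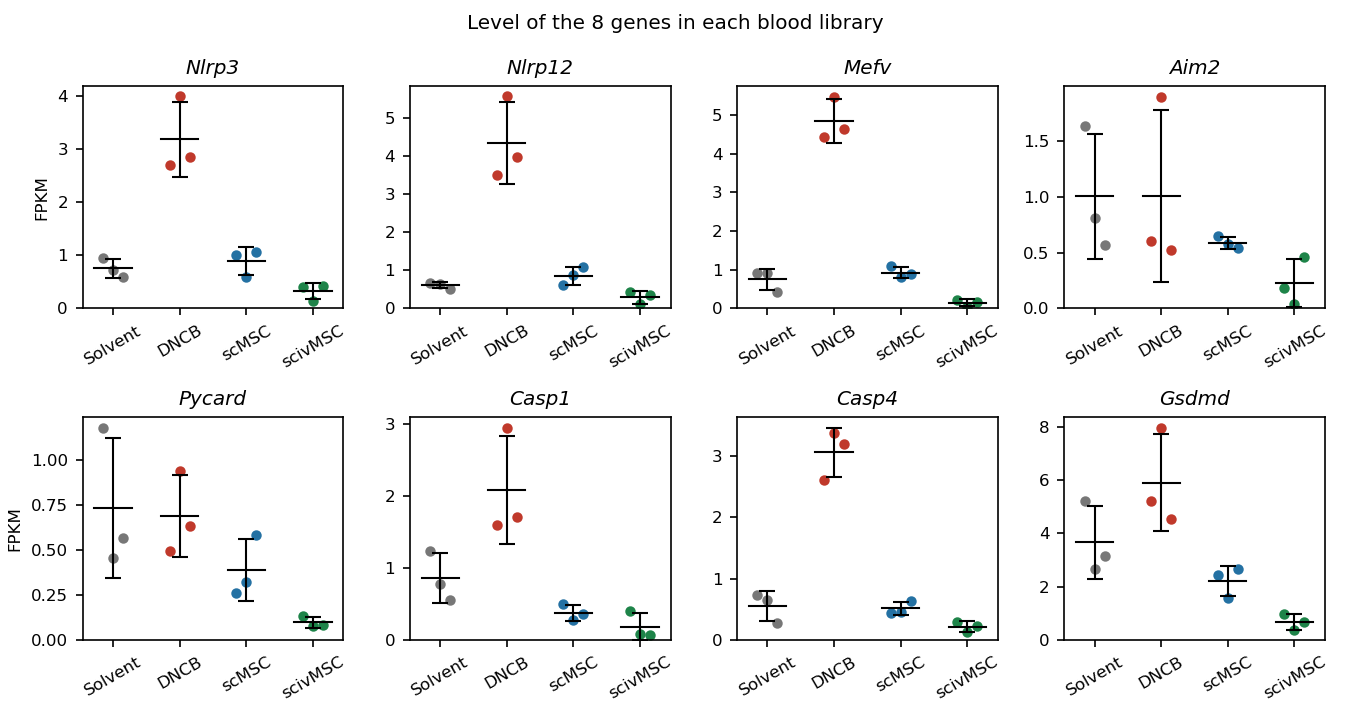
FPKM of each gene (vertical axes, each starting at 0) in the 4 groups. Points are single libraries, horizontal bars the mean and vertical bars the SD of 3 mice; the DNCB points of Nlrp3, Nlrp12, Mefv, Casp1 and Casp4 sit above all other points, while those of Pycard and Aim2 overlap the Solvent points.

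Nlrp3 encodes the sensor that responds to potassium efflux, crystals and extracellular ATP. Its level in Solvent replicates 1 to 3 was 0.949, 0.728 and 0.590 FPKM, against 2.71, 4.00 and 2.86 FPKM in DNCB, 1.01, 0.593 and 1.07 FPKM in scMSC, and 0.405, 0.145 and 0.415 FPKM in scivMSC. The DNCB libraries stood apart above the other 9, the scMSC libraries lay across the Solvent range, and the scivMSC libraries lay below both. The mean rose from 0.756 ± 0.181 to 3.19 ± 0.707 FPKM (SD, n = 3) with DNCB, 2.08 log2 units higher (SE 0.44, adjusted p = 0.0029). Relative to DNCB, the log2 difference was -1.85 for scMSC (adjusted p = 0.0056) and -3.30 for scivMSC (adjusted p = 2.5e-05).

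Nlrp12, a member of the same family that has been described both as a brake on NF-κB signalling and as an inflammasome sensor, had the largest fitted rise of the 8 genes. The libraries held 0.664, 0.638 and 0.518 FPKM in Solvent, 3.51, 5.56 and 3.97 in DNCB, 0.605, 0.866 and 1.09 in scMSC, and 0.421, 0.102 and 0.352 in scivMSC. Again the 3 DNCB libraries were above the other 9, and the scMSC libraries overlapped the Solvent ones. The DNCB mean of 4.35 ± 1.08 FPKM compared with 0.607 ± 0.0779 in Solvent (SD, n = 3), 2.84 log2 units higher (SE 0.45, adjusted p = 0.00029). The scMSC libraries were lower than DNCB, at -2.36 log2 units (SE 0.44, adjusted p = 0.0013), and so were the scivMSC libraries, at -3.89 (SE 0.47, adjusted p = 8.7e-06).

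Mefv encodes pyrin, which senses the inactivation of RhoA by bacterial toxins. Solvent libraries held 0.912, 0.903 and 0.428 FPKM, DNCB libraries 4.42, 5.49 and 4.64, scMSC libraries 1.09, 0.803 and 0.889, and scivMSC libraries 0.225, 0.0415 and 0.156. The DNCB libraries were the highest and the scivMSC libraries the lowest of the 12, with no overlap of either with another group. From Solvent to DNCB the mean went from 0.748 ± 0.277 to 4.85 ± 0.560 FPKM (SD, n = 3), 2.69 log2 units higher (SE 0.49, adjusted p = 0.00079). Against DNCB the scMSC value was -2.39 log2 units (SE 0.48, adjusted p = 0.0021) and the scivMSC value -5.08 (SE 0.55, adjusted p = 4.7e-06), the latter the largest difference of the 8 genes in any of the 6 contrasts.

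Aim2 encodes a sensor of double-stranded DNA in the cytosol. It was measured at 1.64, 0.814 and 0.567 FPKM in Solvent, 0.606, 1.90 and 0.528 in DNCB, 0.650, 0.574 and 0.541 in scMSC, and 0.183, 0.0385 and 0.459 in scivMSC. A single library was far above the rest in both Solvent (replicate 1) and DNCB (replicate 2), and the scivMSC libraries lay below all others. The means were 1.01 ± 0.560 FPKM in Solvent and 1.01 ± 0.771 in DNCB (SD, n = 3). Aim2 did not reach 1 FPKM in 3 libraries, so it was tested without a filter on low values, which gave a difference of 0.02 log2 units with a 95% interval from -1.20 to 1.24 (adjusted p = 1). Its difference of -2.16 in scivMSC against DNCB was called (SE 0.64, adjusted p = 0.0097), but became -1.33 (adjusted p = 0.203) without DNCB replicate 2 and -0.66 (adjusted p = 0.444) with TMM. Without scivMSC replicate 3 it was -3.18.

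Pycard encodes ASC, the adaptor shared by the sensors above. Its libraries read 1.18, 0.454 and 0.566 FPKM in Solvent, 0.495, 0.941 and 0.631 in DNCB, 0.260, 0.324 and 0.585 in scMSC, and 0.134, 0.0788 and 0.0836 in scivMSC. The Solvent, DNCB and scMSC ranges overlapped, and the scivMSC range lay below them. Pycard reached 1 FPKM in 1 library only and was also tested without the filter, where DNCB differed from Solvent by -0.09 log2 units, with a 95% interval from -1.24 to 1.06 (adjusted p = 1). For scivMSC the difference from DNCB was -2.76 log2 units (SE 0.62, adjusted p = 0.00071), and -1.37 with TMM (adjusted p = 0.028). In scMSC against DNCB the value was -0.83, with an interval from -1.99 to 0.34.

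Casp1 encodes caspase-1, which matures interleukin-1β. Its values were 1.24, 0.784 and 0.552 FPKM in Solvent, 1.60, 2.95 and 1.72 in DNCB, 0.494, 0.270 and 0.358 in scMSC, and 0.401, 0.0789 and 0.0642 in scivMSC. The DNCB libraries were above all other libraries, and all scMSC libraries were below all Solvent ones. The DNCB mean of 2.09 ± 0.749 FPKM compared with 0.858 ± 0.348 in Solvent (SD, n = 3), and the log2 fold change of 1.28 had a 95% interval from 0.04 to 2.53 and was not called (adjusted p = 0.137). It was called with TMM (1.15, adjusted p = 0.028), in a fit of the 6 libraries alone (adjusted p = 0.011) and without scivMSC replicate 1 (adjusted p = 0.028). Both MSC groups were lower than DNCB, scMSC at -2.48 log2 units (SE 0.62, adjusted p = 0.0071) and scivMSC at -3.47 (SE 0.65, adjusted p = 0.00024). Without scivMSC replicate 1, the highest of its group, the scivMSC differences were -4.78 from DNCB, -3.49 from Solvent and -2.30 from scMSC, the last then called (adjusted p = 0.0028), where with all libraries they were -3.47, -2.18 and -0.99.

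Casp4, next to Casp1 on the chromosome, encodes caspase-11. The deposited values were 0.735, 0.645 and 0.279 FPKM in Solvent, 2.61, 3.37 and 3.21 in DNCB, 0.442, 0.460 and 0.640 in scMSC, and 0.298, 0.12 and 0.221 in scivMSC. Only the DNCB libraries were above 1 FPKM, and the lowest Solvent library lay inside the scivMSC range. Casp4 rose from 0.553 ± 0.242 in Solvent to 3.06 ± 0.399 FPKM in DNCB (SD, n = 3), 2.46 log2 units higher (SE 0.45, adjusted p = 0.00092). Relative to DNCB it was 5.91-fold lower in scMSC (adjusted p = 0.00095), and the scivMSC level was 14.1-fold lower (adjusted p = 1.1e-05).

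Gsdmd encodes gasdermin D and had the highest mean FPKM of the 8 genes in every group. Levels were 5.22, 2.64 and 3.14 FPKM in Solvent, 5.21, 7.96 and 4.53 in DNCB, 2.42, 1.55 and 2.65 in scMSC, and 0.988, 0.368 and 0.671 in scivMSC. Solvent replicate 1 lay inside the DNCB range, whereas the scivMSC libraries were below all others. For DNCB and Solvent the fitted log2 difference was 0.69, with a 95% interval from -0.19 to 1.56 (adjusted p = 0.268), which includes both 0 and rises of more than 2-fold. The scMSC difference from DNCB was -1.43 log2 units (SE 0.42, adjusted p = 0.019). That call was lost without DNCB replicate 2 (adjusted p = 0.110), without scMSC replicate 2 (adjusted p = 0.101) and with TMM, where the difference of -0.73 was under 2-fold. For scivMSC it was -3.10 (SE 0.45, adjusted p = 3.0e-05).

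Setting DNCB beside Solvent addresses the effect of the hapten on blood. Of the 6 genes that passed the filter of at least 1 FPKM in 3 libraries, 4 were called higher, where 15.6% of the 5527 genes tested were. That count is a description, since Casp4 passed through the 3 DNCB libraries alone and Nlrp12, Mefv and Casp1 through those and 1 more. Nlrp3 reached 1 FPKM in 5 libraries, those 3 included, and would not have passed without them. With a count filter, a mean of at least 40 estimated counts over the 12 libraries, all 8 genes were tested. The same 4 were called higher and none lower, where 8.55% of 10044 genes were called higher. That filter was chosen after seeing the data. A high group raises the mean too, but all 8 genes held at least 73 estimated counts in every Solvent library. Over the 4 groups together, edgeR's F test passed for the 6 genes of the first filter (72.3% of all genes) and for 7 of 8 under the count filter (69.1%), Aim2 missing it (adjusted p = 0.053). With TMM and the first filter, 5 of 6 were called higher, Casp1 being added, against 16.1% of all genes.

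The comparisons of each MSC group with DNCB ask what differed in sensitised mice that were also given cell injections. They share the 3 DNCB libraries with each other and with the comparison above, so a high DNCB library moves all of them. In scMSC, 6 of the 8 genes were called lower under the count filter, where 13.3% of all genes tested were. Under the first filter the 6 genes tested were all called lower, against 24.9% of genes. All of them but Gsdmd passed that filter through the DNCB libraries, so its counts in both MSC groups, on either scale, are descriptions. In scivMSC, all 8 were called lower under the count filter and all 6 under the first filter, but 58.7% and 62% of all genes were called lower there too. Without a filter, the fit that tested Pycard and Aim2, 22.9% were, and 7.83% with TMM added. Measured against the median of all genes, the 6 differences in scivMSC lay at -1.57 to -3.55 log2 units from it. With TMM, 5 of 6 genes were called lower in scMSC, against 12.3% of all genes, and 6 of 6 in scivMSC, against 18.9%. On that scale the scivMSC differences from DNCB were -1.74 for Nlrp3, -2.38 for Nlrp12, -3.59 for Mefv, -2.03 for Casp1, -2.27 for Casp4 and -1.53 for Gsdmd.

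**Figure D2:**
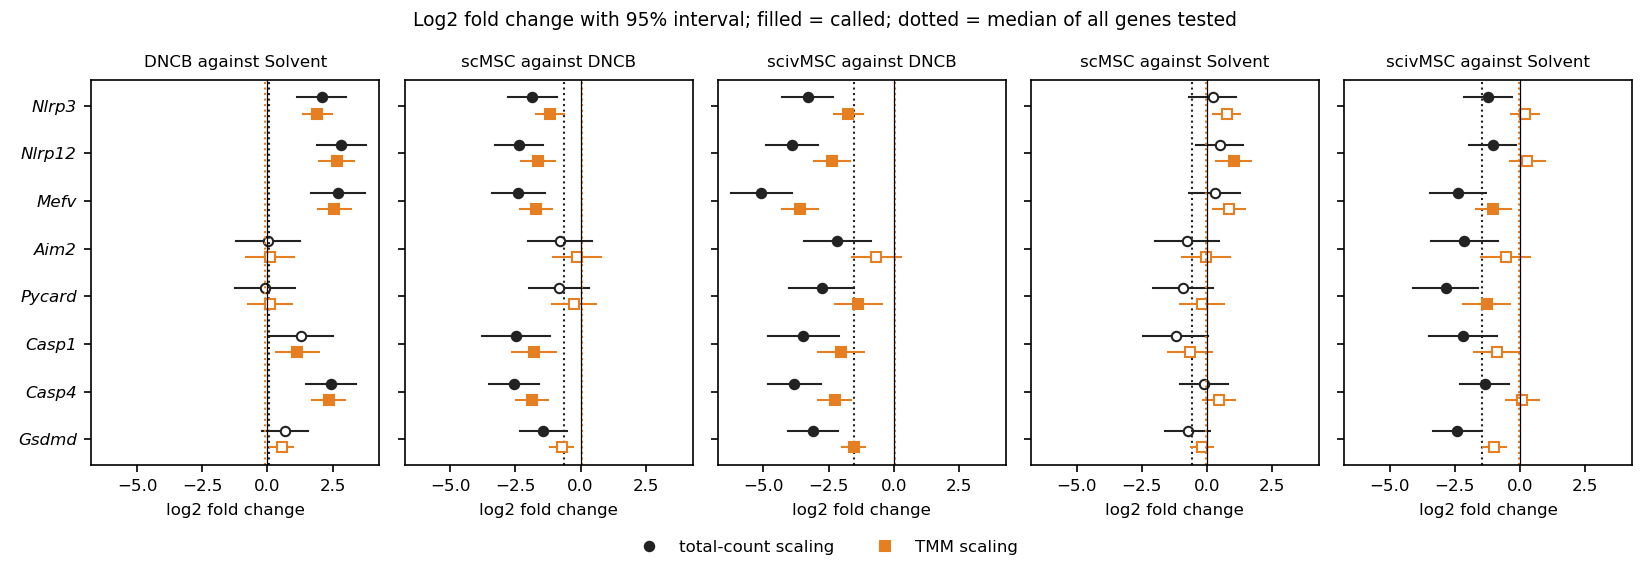
Log2 fold change (horizontal axes) of each gene in 5 comparisons, on total-count scaling (black circles) and TMM scaling (orange squares), with 95% intervals; filled symbols were called and dotted lines mark the median of all genes tested. Pycard and Aim2 come from the fits without a filter, while the dotted lines belong to the filtered fits; the rise in DNCB and the falls against DNCB are kept on both scales for Nlrp3, Nlrp12, Mefv and Casp4, whereas with TMM the differences of scivMSC from Solvent are 0.18, 0.27 and 0.08 for Nlrp3, Nlrp12 and Casp4.

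Against Solvent, none of the 8 genes was called in scMSC by edgeR under total-count scaling, where 0.326% of the 5527 genes were called higher and 0.326% lower. The log2 differences ran from -1.20 for Casp1 to 0.48 for Nlrp12, and at edgeR's unadjusted p under 0.05 none of the 6 genes under the first filter passed, where 1565 of the 5527 did. In the fit without a filter, Casp1 passed that level (unadjusted p = 0.042, adjusted p = 0.343). Nlrp12 was called higher than in Solvent with TMM (1.02, adjusted p = 0.043; 7.29% of all genes were) and with DESeq2 (1.01, adjusted p = 0.0094). The 95% intervals under total-count scaling reached from -0.68 to 1.13 for Nlrp3 and from -0.67 to 1.28 for Mefv, which includes differences over 2-fold for both.

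In scivMSC against Solvent, 6 of the 6 genes under the first filter were called lower, where 59.2% of all genes were, and 3 remained without Solvent replicate 1. The log2 differences were -1.23 for Nlrp3, -1.05 for Nlrp12, -2.38 for Mefv, -2.18 for Casp1, -1.36 for Casp4 and -2.42 for Gsdmd. These calls depended on the scale. With TMM, where 13.4% of genes were called lower, Mefv was the 1 gene of the 6 called (-1.03, adjusted p = 0.014), and Nlrp3, Nlrp12 and Casp4 had small differences of the opposite sign (0.18, 0.27 and 0.08). Pycard, tested without the filter, was called lower on both scales, at -2.85 with total counts and -1.28 with TMM (adjusted p = 0.042), where 28.2% and 6.59% of 25247 genes were. Under the count filter with total counts Pycard was called too (adjusted p = 0.00076), as were 6624 of 10044 genes. Aim2 was called in the fit without a filter with total counts (-2.14, adjusted p = 0.0086) and not with TMM (-0.56, adjusted p = 0.497), nor without Solvent replicate 1 (-1.60, adjusted p = 0.061).

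The direct comparison of the injection routes, scivMSC against scMSC, called 5 of 6 genes lower, where 30.4% of all genes were, and Pycard lower in the fit without a filter, where 8.68% were. Pycard was also called under the count filter (adjusted p = 0.023), where 2667 of 10044 genes were called lower. The scivMSC libraries were all below the scMSC libraries for Nlrp3, Nlrp12, Mefv, Casp4, Gsdmd, Pycard and Aim2, as they were for 46.7% of the 5527 genes. Mefv differed most, by -2.69 (SE 0.51, adjusted p = 0.0082), and was called with TMM as well (-1.88, adjusted p = 0.0030), where 4.92% of all genes were called lower. Its call did not hold in a fit of the 6 libraries alone (adjusted p = 0.052). The other calls were lost with TMM, and the count fell to 3 without scivMSC replicate 2, to 3 without scMSC replicate 1 and to 2 without scMSC replicate 3. Casp1 was not called (-0.99, adjusted p = 0.209), with scivMSC replicate 1 inside the scMSC range.

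Because all 8 genes share the scale of their library, the make-up of the set within each library does not depend on scaling. The summed level of the 8 was 8.93 ± 3.16 FPKM in Solvent, 25.1 ± 6.11 in DNCB, 6.75 ± 1.20 in scMSC and 2.15 ± 1.07 in scivMSC (SD, n = 3). Gsdmd made up 41.6%, 34.7% and 47.3% of that sum in Solvent against 24.6%, 24.7% and 20.5% in DNCB, with no overlap. Mefv took 7.27%, 11.9% and 6.44% in Solvent and 20.9%, 17% and 21.0% in DNCB, and Nlrp12 went from 5.30%, 8.39% and 7.79% to 16.6%, 17.3% and 18%. The share of these sensors was higher in every DNCB library than in any Solvent library, and the mean share of Pycard was 2.71% ± 0.320 in DNCB and 7.97% ± 1.79 in Solvent (SD, n = 3). Shares sum to the whole, so a larger share of some genes lowers that of the others. An exact permutation test of 3 against 3 libraries cannot go below p = 0.1, so none was used on these shares.

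**Figure D3:**
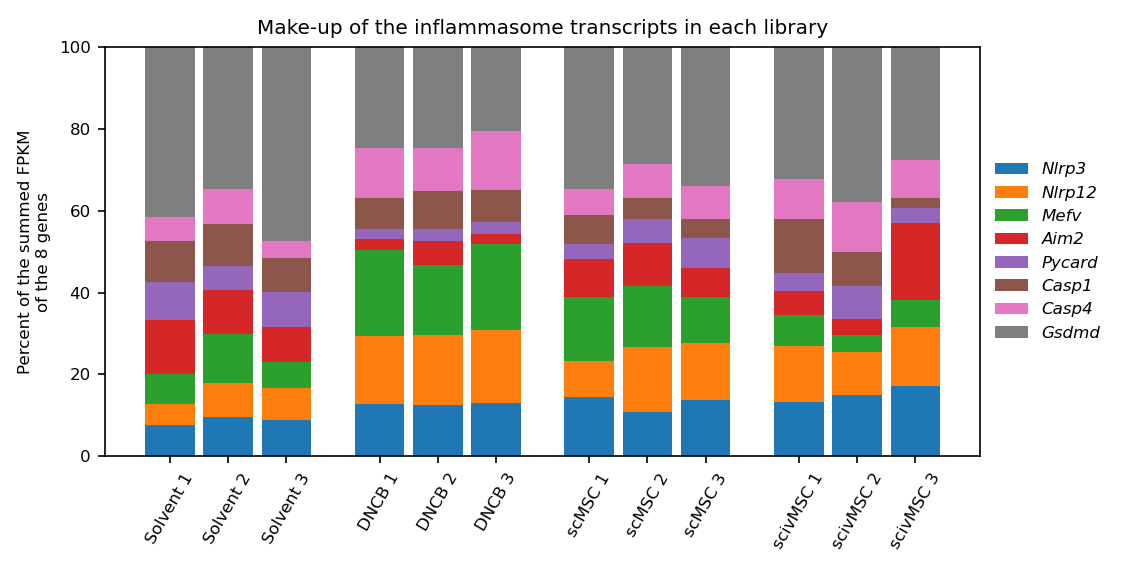
Percent of the summed FPKM of the 8 genes (vertical axis) taken by each gene in each of the 12 libraries, grouped by treatment. Gsdmd (grey) takes between 20.5% and 24.7% in DNCB libraries and at least 27.7% elsewhere, and Mefv (green) is widest in DNCB and narrowest in scivMSC on average.

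The ratio of Nlrp3 to Pycard, sensor to adaptor on the FPKM scale, was 0.802, 1.60 and 1.04 in Solvent and 5.47, 4.26 and 4.53 in DNCB. It was 3.88, 1.83 and 1.82 in scMSC and 3.03, 1.84 and 4.97 in scivMSC, so 1 scivMSC library reached into the DNCB range. The ratio of Mefv to Gsdmd was 0.854 ± 0.168 in DNCB, 0.434 ± 0.0916 in scMSC, 0.218 ± 0.109 in Solvent and 0.191 ± 0.0681 in scivMSC (SD, n = 3). For Casp4 to Casp1, the neighbouring caspases, the ratio was below 1 in all Solvent libraries (0.594, 0.822 and 0.505) and above 1 in all DNCB libraries (1.64, 1.14 and 1.87). It spread widely in scMSC (0.895 to 1.79) and in scivMSC (0.742 to 3.44). The scivMSC ratios divide by few estimated counts, 75, 15 and 12 for Casp1 and 30, 17 and 19 for Pycard, which limits them.

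On the FPKM scale, which is per length, the order of the mean levels in Solvent was Gsdmd, Aim2, Casp1, Nlrp3, Mefv, Pycard, Nlrp12 and Casp4, and only Gsdmd stood apart from its neighbour. In DNCB the order was Gsdmd, Mefv, Nlrp12, Nlrp3, Casp4, Casp1, Aim2 and Pycard, with every neighbouring pair overlapping. Aim2, next to Gsdmd at the top in Solvent, was next to last in DNCB, while Casp4 was last in Solvent and above Casp1, Aim2 and Pycard in DNCB. In scMSC Gsdmd was again apart from the next gene, Mefv. In scivMSC Gsdmd led without standing apart, and Mefv, next after it in DNCB and scMSC, was next to last.

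Libraries shifted the genes together. Solvent replicate 1 was the highest of its group for 8 of 8 genes, DNCB replicate 2 the highest for 8 of 8 and scivMSC replicate 2 the lowest for 7 of 8. The haemoglobin share of summed FPKM was 92.3% in Solvent replicate 1, the lowest of its group, 91.3% in DNCB replicate 2, the lowest of all, and 95.6% in scivMSC replicate 2, the highest of all. With the haemoglobin genes left out of the library totals, 4 of 6 were again called higher in DNCB than in Solvent. All 6 genes were called lower in each MSC group than in DNCB, the same numbers as before. Of all 5523 genes tested there, 845 were called higher in DNCB than in Solvent. Against DNCB, 988 were called lower in scMSC and 2567 in scivMSC. In scivMSC against DNCB the fold difference of Nlrp3 went from 9.87 to 6.70 and that of Gsdmd from 8.58 to 5.85, while the median log2 difference of all genes went from -1.53 to -0.99. In scivMSC against Solvent, 3 of the 6 were called lower, as were 2707 of the 5523.

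Markers of other blood cells moved with the groups. Their counts stand beside 15.6% of all genes called higher and 4.87% called lower in DNCB than in Solvent, and beside 24.9% in scMSC and 62% in scivMSC called lower than in DNCB. The 11 neutrophil markers, none of them at 0 in any group, summed to 221 to 446 FPKM in Solvent, 7043 to 11049 in DNCB, 582 to 724 in scMSC and 249 to 747 in scivMSC. All 11 of 11 were called higher in DNCB than in Solvent, with a median log2 fold change of 5.08, and all 11 were called lower in scMSC and in scivMSC than in DNCB, with medians of -3.65 and -4.22. The rises of Nlrp3, Nlrp12, Mefv and Casp4 in DNCB, 2.08 to 2.84, were smaller than the smallest rise of a neutrophil marker, 3.17. The monocyte list summed to 16.1 to 41.5 FPKM in Solvent, 29.9 to 53.1 in DNCB, 9.43 to 14.8 in scMSC and 1.81 to 4.75 in scivMSC, with 1 of its 5 tested genes called higher in DNCB, 4 called lower in scMSC and 5 called lower in scivMSC, both against DNCB. T cell, B cell and NK cell lists had 7 of 8, 7 of 7 and 2 of 3 tested genes called lower in DNCB than in Solvent. Of 8 platelet markers, 4 were called higher in DNCB than in Solvent and 6 in scivMSC than in Solvent, where 2.59% of all genes were. The eosinophil and basophil list summed to 1.59 to 2.50 FPKM in Solvent, with Epx at 0, and to 6.28 to 7.56 in DNCB, without overlap, and 1 of its 3 tested genes was called higher. Within that list Mcpt8 rose most, from a mean of 0.486 to 3.49 FPKM. Ccr3 went from 0.256 to 0.287, and Il5ra alone had a lower mean (0.300 to 0.125). The part of these marker shifts in the levels of the 8 genes was not tested.

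**Figure D4:**
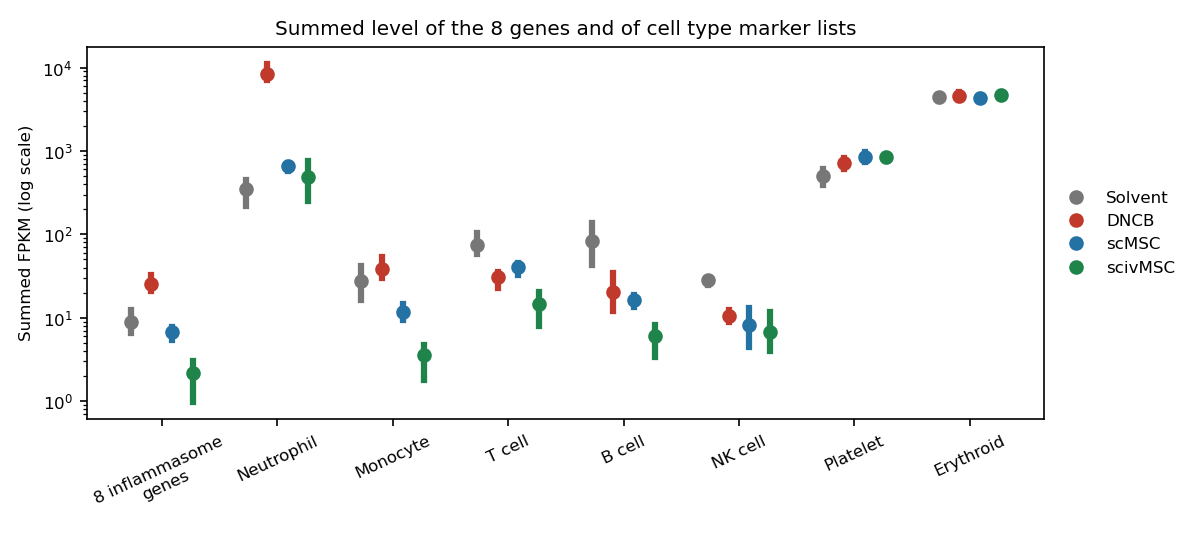
Summed FPKM (logarithmic vertical axis) of the 8 inflammasome genes and of 7 cell type marker lists; points are group means and bars span the lowest to the highest of 3 libraries. The neutrophil sum is at least 7043 in DNCB and at most 747 elsewhere, the monocyte sum is lowest in scivMSC, and the platelet and erythroid sums stay within a narrower range.

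Other genes of the pathway were taken from 5 lists. Among inflammasome sensors and their regulators, 7 of 17 genes passed the filter, of which 3 were called higher and none lower in DNCB against Solvent, 4 lower in scMSC against DNCB and 6 lower in scivMSC against DNCB, beside 15.6%, 24.9% and 62% of all genes. With TMM the last 2 counts were 2 and 3. Under the count filter 11 were tested. The calls were 2 higher in DNCB (8.55% of genes), 3 lower in scMSC (13.3%) and 7 lower in scivMSC (58.7%). Under the first filter, with 7 genes of the list, the list medians in those comparisons were 0.88, -1.36 and -2.28. The medians of all genes in that fit were 0.06, -0.63 and -1.53. Nlrp1b, a sensor of bacterial proteases, rose from 0.192 ± 0.166 to 1.10 ± 0.122 FPKM (SD, n = 3), with a log2 fold change of 2.50 (adjusted p = 0.027). Pstpip1, which binds pyrin, stood at 4.57, 2.75 and 2.58 FPKM in Solvent and 8.08, 13.7 and 7.15 in DNCB (log2 fold change 1.55, adjusted p = 0.023). Naip2, which recognises a bacterial secretion-system protein for the NLRC4 inflammasome, also rose (1.5, adjusted p = 0.044). Nlrp1b and Naip2 passed the first filter through the 3 DNCB libraries alone, so their place in the count of 3 and in the list medians is a description. Under the count filter Naip2 was not called (adjusted p = 0.068) and Nlrp1b was at the threshold (adjusted p = 0.0499). NLRC4 itself was barely present, with Nlrc4 at no more than 0.359 FPKM in any library. In scivMSC against DNCB, Nlrp1b, Naip2 and Pstpip1 were lower, at -3.88, -3.87 and -3.15 log2 units. Txnip, an NLRP3-binding protein, and Irf2, a transcription factor known to drive Gsdmd, were not called in DNCB against Solvent (0.88 and 0.68), but both were called lower in scMSC (-1.19 and -1.36) and in scivMSC (-2.13 and -2.28) than in DNCB. With TMM neither was called in those contrasts, at -0.59 and -0.65 in scMSC and at -0.65 and -0.72 in scivMSC.

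**Figure D5:**
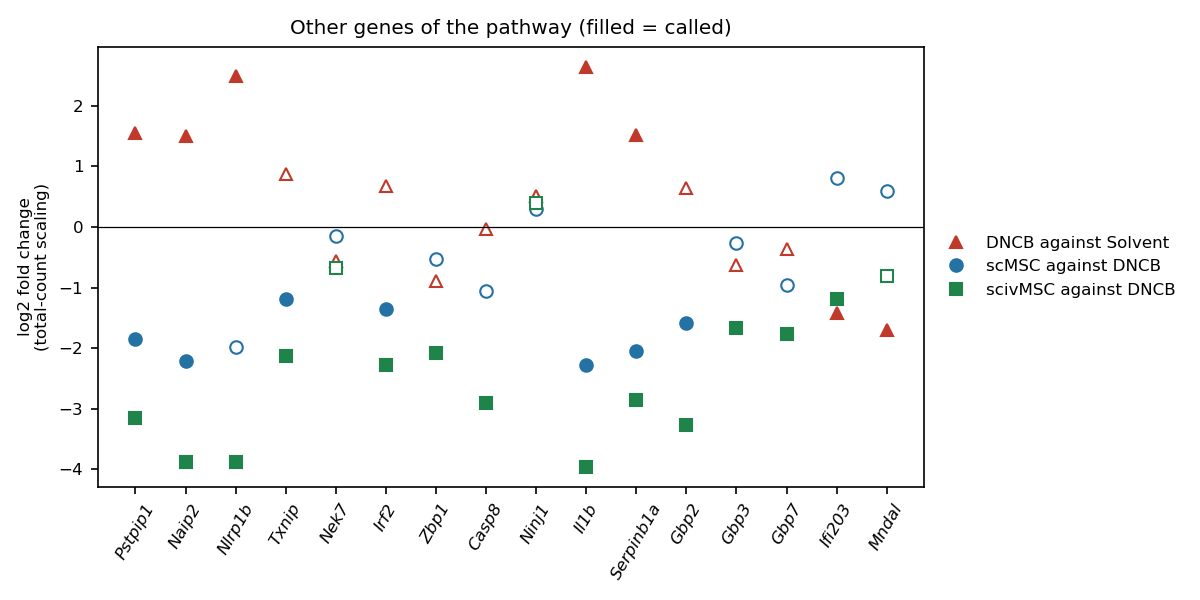
Log2 fold change on total-count scaling (vertical axis) of 16 other pathway genes that passed the filter, in DNCB against Solvent (triangles), scMSC against DNCB (circles) and scivMSC against DNCB (squares); filled symbols were called. Il1b and Nlrp1b have the highest triangles at 2.64 and 2.50, Mndal and Ifi203 the lowest, and Ninj1 lies between 0.29 and 0.52 in the 3 comparisons, rising to 2.21 in scivMSC against DNCB with TMM.

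Of the cytokine genes Il1a, Il1b and Il18, Il1b was the one that passed the filter. It stood at 17.3, 13.6 and 9.58 FPKM in Solvent, 83.1, 97.9 and 72.3 in DNCB, 16.8, 15 and 20.8 in scMSC and 7.96, 2.01 and 6.31 in scivMSC. The DNCB libraries were above all others, and its rise of 2.64 on the log2 scale (adjusted p = 0.00021) and its differences from DNCB, -2.28 for scMSC (adjusted p = 0.00085) and -3.96 for scivMSC (adjusted p = 4.6e-06), stand beside 2.84, -2.36 and -3.89 for Nlrp12. Il18 was listed at 0 in all scivMSC libraries and reached at most 0.382 FPKM elsewhere, and Il1a reached at most 0.0293 FPKM. Serpinb1a, an inhibitor of neutrophil proteases that also restrains inflammatory caspases, was the 1 tested gene of the inhibitor list. It was 1.52 log2 units higher in DNCB than in Solvent (adjusted p = 0.010), and -2.05 in scMSC and -2.85 in scivMSC against DNCB were both called.

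Among caspases, gasdermins and membrane rupture genes, 6 of 8 listed genes were in the table and 3 passed the filter. None of these 3 was called in DNCB against Solvent or in scMSC against DNCB under total-count scaling. With TMM 1 of them, Ninj1, was called higher in scMSC than in DNCB (1.02, adjusted p = 0.043), as were 8.74% of all genes. Casp8, an apoptotic caspase that can cut gasdermin D, was lower in scivMSC than in DNCB (-2.90, adjusted p = 5.6e-05). Ninj1, which ruptures the membrane after pore formation, measured 8.92, 10.5 and 6.96 FPKM in DNCB and 9.67, 15.1 and 10.2 in scivMSC, with overlapping groups and a log2 difference of 0.39 (adjusted p = 0.273). With TMM the same comparison gave 2.21 (adjusted p = 0.00025), where 20.6% of all genes were called higher. Gsdme, another gasdermin, did not pass the filter, so the absence of a call in DNCB does not cover it. It read 0.848, 1.29 and 0.691 FPKM in DNCB and at most 0.142 in every other library, and was named here after its values were seen.

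Among AIM2-like receptors and guanylate-binding proteins, 8 of 10 listed genes were in the table and 5 passed the filter. Of these, 2 were called lower in DNCB than in Solvent, where 4.87% of all genes were, and none higher, and the list median was -0.63. Mndal stood at 6.37, 3.45 and 4.71 FPKM in Solvent and 1.69, 1.78 and 0.980 in DNCB (log2 fold change -1.70, adjusted p = 0.0034), and Ifi203 fell by 1.42 (adjusted p = 0.013). Both belong to the same family as Aim2. The guanylate-binding proteins, which help caspase-11 reach bacterial lipopolysaccharide, were not called in DNCB: Gbp2, Gbp3 and Gbp7 had values of 0.64, -0.63 and -0.36. In scivMSC against DNCB, Gbp2 was at -3.27, Gbp7 at -1.77 and Gbp3 at -1.66, all called, but with TMM Gbp7 and Gbp3 were at -0.06 and -0.02 while Gbp2 stayed called (-1.73).

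The genes whose pattern was most like each member's were found by the root mean square difference in log2(FPKM + 1) over the 12 libraries, each gene centred on its own mean, among 4961 or 4962 genes. For Nlrp3 they were Fbxo31 (0.096) and Cers6 (0.102), and for Casp4 Cers6 (0.112) and Abcd2 (0.115). Nlrp12 was nearest to Snx18 (0.122) and Trpm2 (0.132), and Mefv to Anxa11 (0.113) and Slc11a1 (0.114), the latter a metal transporter of phagosomes. Casp1 was nearest to Slc12a9 (0.083) and Pdlim2 (0.098), and Gsdmd to Sipa1 (0.112) and Il16 (0.124). For Pycard the nearest were Tug1 (0.098) and Pip5k1a (0.102), and for Aim2 Mcts1 (0.126) and Rbm22 (0.140). Low levels give small distances on this scale by construction, which applies most to Pycard and Aim2. Anxa11 and Slc11a1 had means of 6.63 and 6.27 FPKM in DNCB and 0.594 and 0.462 in scivMSC, while Tug1 and Mcts1 had similar means in Solvent (1.25 and 1.39) and DNCB (1.19 and 1.22).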

How the data were processed

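Whole-blood RNA from 12 mice was sequenced, 1 library per mouse. The submitters' processing notes name HISAT2 2.0, StringTie 1.3.0, Bowtie 0.12.2 and build mm8, without roles. The authors deposited FPKM values and whole-number counts for 25247 genes. The deposited counts were treated as estimated counts, because 29.0% of values from 1 to 12 are exactly 4. Over 2485 genes, FPKM tracked the counts within 0.0611 log2 units. Floors and intervals cover counting error only, apart from intervals of fold changes.

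The counts of all 12 libraries were fitted with 4 group means by edgeR 4.0.16 (R 4.3.3) without TMM factors. Genes with at least 1 FPKM in at least 3 libraries were tested (5527), and Pycard and Aim2 without a filter (25247). A call needed a Benjamini-Hochberg adjusted p under 0.05 and a fold change over 2. Alternatives were TMM, haemoglobin left out, limma 3.58.1 on log2(FPKM + 1) and log2(FPKM + 0.1), DESeq2 1.42.0, other filters, 6 libraries, a replicate block and each library left out. The filter on a mean of 40 counts, and settings joined with no filter, were chosen after seeing the data. The scripts were tested on simulated data.

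The members and lists were chosen with earlier results of these data known. Companion genes named were up to 3 called genes of each list with the largest change in DNCB against Solvent and in scivMSC against DNCB, and up to 2 tested genes with the highest FPKM not called in the former. No sequences are shown, and 1 companion gene is not reported here. The labels do not say that same-numbered mice were related, and replicate numbers were used as pairs only in the replicate block.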

Additional observations from a re-analysis of the deposited data

Results flagged for a closer look

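The MSC groups differed from each other, by edgeR's test of scivMSC against scMSC, in 6 genes. Of all genes, 30.4% were called lower with the filter of at least 1 FPKM in 3 libraries, and 8.68% in the fit without a filter, from which the value of Pycard comes. Casp4 was not called in the latter (adjusted p = 0.098). With a filter on a mean of at least 40 estimated counts, 2667 of 10044 genes were called lower. The log2 differences were -1.46 for Nlrp3 (adjusted p = 0.0245), -1.53 for Nlrp12 (adjusted p = 0.0194), -1.94 for Pycard (adjusted p = 0.0368), -1.25 for Casp4 (adjusted p = 0.0432), -1.67 for Gsdmd (adjusted p = 0.0144) and -2.69 for Mefv (adjusted p = 0.0082). All 3 scivMSC libraries were below all 3 scMSC libraries for each of the 6, and 46.7% of all genes tested were lower without overlap. The median of all genes was -0.87, and the differences from that median were -0.38 for Casp4 and -1.82 for Mefv. With TMM the call was kept for Mefv and lost for the other 5.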

How the results depend on the processing

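In DNCB against Solvent, scMSC against DNCB and scivMSC against DNCB, the number of genes called stayed within 1.5 times its value under every alternative, at 4 to 5, 5 to 6 and 6 to 8. The 8 came from fits that tested all 8 genes, where the first filter left 6. In scivMSC against scMSC, 5 were called, but 1 with TMM, 1 with DESeq2, 0 with limma on log2(FPKM + 1) and 0 in a fit of the 6 libraries, and 2 to 6 with a library left out. In scMSC against Solvent, 0 became 1 with TMM, 1 with DESeq2 and 2 with TMM and a mean count of at least 40 (Nlrp12 at 1.18 and Mefv at 1.00), and 0 to 0 with a library left out. In scivMSC against Solvent, 6 became 1 with TMM, 1 with DESeq2, 1 with limma on log2(FPKM + 1), 3 with haemoglobin left out and 3 in the 6 libraries, and 3 to 6 with a library left out. No member had a mean FPKM of at least 5 over the 12 libraries, so that filter gave no value. With TMM, 4.92% of all genes were called lower in scivMSC against scMSC. Against Solvent, 7.29% were higher in scMSC and 13.4% lower in scivMSC. With TMM and a mean count of at least 40, 584 of 10044 were higher in scMSC than in Solvent. With haemoglobin left out, 2707 of 5523 were lower in scivMSC than in Solvent. Shares of all genes for DESeq2, limma, the 6 libraries, the replicate block and libraries left out are not given here.

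Signs turned in scivMSC against Solvent with TMM and DESeq2 for Nlrp3 (0.18 and 0.21), Nlrp12 (0.27 and 0.29) and Casp4 (0.080 and 0.10), since both scales move the median gene. Casp4 in scMSC against Solvent turned to 0.47 with TMM, 0.46 with DESeq2 and 0.12 with haemoglobin left out, and ranged from -0.42 to 0.16 with a library left out (0.16 and 0.014 without Solvent replicates 1 and 2). Pycard in DNCB against Solvent turned to 0.089 with TMM and 0.13 with DESeq2, and ranged from -0.38 to 0.44 with a library left out (0.44 without Solvent replicate 1 and 0.098 without DNCB replicate 1). Aim2 in that contrast turned to -0.17 with haemoglobin left out and -0.025 and -0.086 with limma at pseudocounts of 1 and 0.1, and ranged from -0.81 to 0.56 (-0.12 and -0.27 without Solvent replicates 2 and 3, -0.81 without DNCB replicate 2). In scMSC against DNCB Aim2 ranged from -1.10 to 0.037 (0.037 without DNCB replicate 2). None of these small values was called, and other causes were not tested.

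Same-numbered libraries correlated at -0.2 to 0.173 in their deviations over 18 pairs, 3 of them over 0.1. Of the 12 libraries, 7 correlated best with a library of their own number. These values do not settle whether the numbers pair the mice. The labels name no pairing, so the group means were fitted without it. With the replicate block, 4, 6 and 6 genes were called in the 3 comparisons with DNCB, and 5, 0 and 6 in scivMSC against scMSC, scMSC against Solvent and scivMSC against Solvent. At 8 to 12 estimated counts, the lowest scivMSC values of Mefv, Aim2 and Casp1 are limited by depth.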
